A study of Mus musculus with 16 samples.

Results

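The 8 liver samples of the NASH model group are described here by how far each gene spread among them, which genes rose and fell in parallel from liver to liver, and whether macrophage, matrix, bile duct and hepatocyte genes tracked each other. They were taken by their label from the 16 liver samples of the series, and no control sample entered any value. All 8 came from mice on a C57BL/6 background and were labelled as a NASH model, that is, a mouse model of nonalcoholic steatohepatitis. The labels do not give how the model was induced, nor the sex, age or treatment of the mice, and nothing says that each sample came from a separate animal. The samples are named 1a, 1b and 2 to 7 as in their labels, and 1a and 1b share a number. The p-values therefore measure the spread between these samples, part of which may be technical.

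Steatohepatitis combines fat storage in hepatocytes with inflammation and scarring. Macrophages take up lipid and dying cells, stellate cells and fibroblasts lay down collagen-rich matrix, and cells of the bile duct lineage often multiply beside the scars in what is called the ductular reaction. Hepatocytes make most plasma proteins and carry out bile acid, lipid and drug metabolism, and many of their enzymes differ with sex, feeding and position in the lobule. In whole liver RNA, fewer cells of a type and less RNA per cell cannot be told apart.

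Total RNA was read on biotin-labelled arrays, and 19572 of the 29129 probe sets had 1 gene symbol. They gave 19505 genes, of which 9990 had a mean log2 value above 4 over the 8 samples and are described below. For orientation, 1412 olfactory and vomeronasal receptor genes, which liver is not known to express, had a median log2 value of 1.82 with 95% of values under 2.75. The tissue label fitted its markers: 37 of 37 hepatocyte genes had a mean above 4, up to 12.71 for albumin, whereas 12 of 12 exocrine pancreas genes and 4 of 4 adipocyte genes lay below 4. The Y-linked genes Eif2s3y (6.63 to 7.11) and Uty (5.28 to 5.75) were above the receptor genes in all 8 samples. Array medians ran from 3.58 to 3.66 as deposited. NASH model 7 had the widest distribution of gene deviations (interquartile range 0.324, against 0.202 to 0.283 in the others) and the lowest mean of the hybridization spike-in controls (9.81, against 9.87 to 10.16). The first principal component held 32.3% of the variance and set NASH model 2 (-19.95) and NASH model 7 (-26.5) apart from the other 6 (0.541 to 14.9). Results that rest on these samples are therefore also given without them.

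Most genes varied little. The median SD over the 8 samples was 0.209 on the log2 scale, and the middle 90% of genes lay between 0.0950 and 0.448. An SD of 0.5 or more was found for 339 genes (3.39%) and of 1 or more for 22 (0.22%). The SD was larger for dim genes, with a median of 0.2502 at means of 4 to 6 and of 0.128 above 10. Without NASH model 2 and 7, a choice made after seeing the data, 3 genes had an SD of 1 or more.

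**Figure D1:**
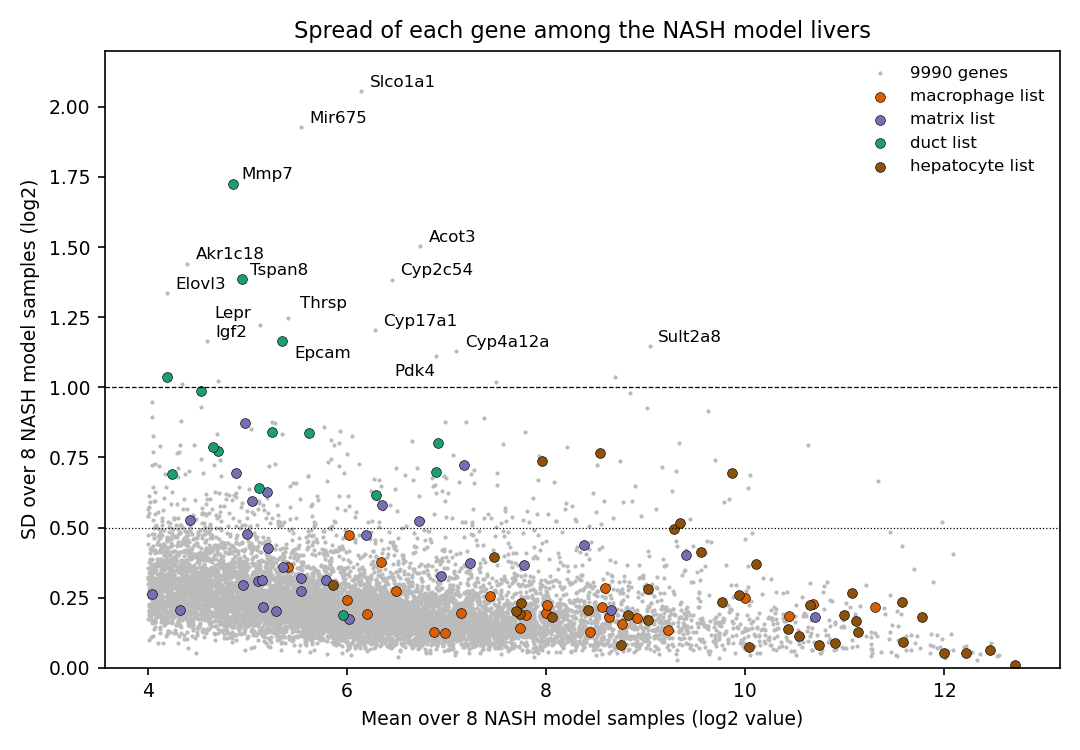
Each point is a gene with a mean log2 value above 4, placed by its mean (x axis) and SD (y axis) over the 8 NASH model samples. Members of the 4 lists are coloured, dashed and dotted lines mark SDs of 1 and 0.5, and the 16 genes with the largest SDs are named. Duct genes (green) lie high for their level, and macrophage genes (orange) lie below 0.5.

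The gene with the largest SD was Slco1a1, an organic anion uptake transporter of the hepatocyte membrane that is more abundant in male mice (SD 2.06). Its log2 value was 2.90 in NASH model 2 and 2.81 in NASH model 7, close to the level of the receptor genes, and 6.72 to 7.69 in the other 6. Other hepatocyte enzymes repeated the split of NASH model 2 and 7 from the rest in the same direction. Cyp2c54, a cytochrome P450, stood at 4.60 and 3.96 in these samples and at 6.66 to 7.57 in the others. The fatty acid elongase Elovl3 stood at 2.04 and 2.16 against 4.50 to 5.65. Thrsp, a regulator of fat synthesis, stood at 3.14 and 3.69 against 5.82 to 6.32. Sult2a8, a bile acid sulfotransferase, stood at 7.50 and 6.91 against 9.56 to 9.79. In none of these 5 genes did the pair overlap the other 6. The genes were picked for large SDs and the pair was set apart by the same values. The share of all genes with such a gap was not counted, so this is a description only. The fatty acid hydroxylase Cyp4a12a (SD 1.13), Susd4 (1.05) and Csrp3 (1.02) were likewise lowest in NASH model 2 and 7. Cyp7a1, the rate-limiting enzyme of bile acid synthesis, was far lowest in NASH model 2, at 6.42 against 8.29 to 9.51 elsewhere. In the clustering below it still grouped with the genes above, in cluster 1.

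Genes that were high in NASH model 2, in NASH model 7 or in both made up the opposite pattern. Akr1c18, a hydroxysteroid dehydrogenase that inactivates progesterone, was highest in NASH model 2 and read 6.27 in NASH model 7, both above the 3.25 to 4.42 of the other samples. Lepr, the leptin receptor, was 7.74 in NASH model 2 against 3.98 to 5.42 elsewhere, and Igf2, a growth factor of the fetal liver, was 7.42 there against 3.77 to 4.43. The steroid hydroxylase Cyp17a1 was also highest in NASH model 2 (8.53, median 6.07, lowest 5.04 in NASH model 6).

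The second largest SD, 1.93, belonged to the probe set annotated to Mir675. It read 9.03 in NASH model 2 and 7.72 in NASH model 7, while the other samples lay between 3.13 (1a) and 5.39 (3). In RefSeq (GRCm38.p6) the hairpin of 84 bases lies at chr7:142577064-142577147 on the minus strand, inside the long noncoding RNA gene H19 at chr7:142575530-142578146, and H19 and Igf2 are known as neighbours in an imprinted cluster. The platform annotation gives this probe set a further noncoding transcript besides the hairpin, so the value may read the host RNA, and it does not measure the mature microRNAs. They are shown because this probe set spread further than any other but that of Slco1a1, with the seed (bases 2 to 8) in capitals. No other of the 1738 mature sequences in the RefSeq table shares either seed.
mmu-miR-675-3p: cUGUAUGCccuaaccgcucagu
mmu-miR-675-5p: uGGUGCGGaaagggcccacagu

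Several genes of wide spread did not follow NASH model 2 and 7. Acot3, a peroxisomal acyl-CoA thioesterase, ran from 4.12 in 1b through a median of 6.94 to 8.46 in NASH model 3. Pdk4, the kinase that turns down pyruvate oxidation in fasting, ran from 5.06 in NASH model 7 to 8.49 in NASH model 2, so that these samples lay at opposite ends. Mmp7, Tspan8, Epcam and Prom1 belong to the duct list.

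**Figure D2:**
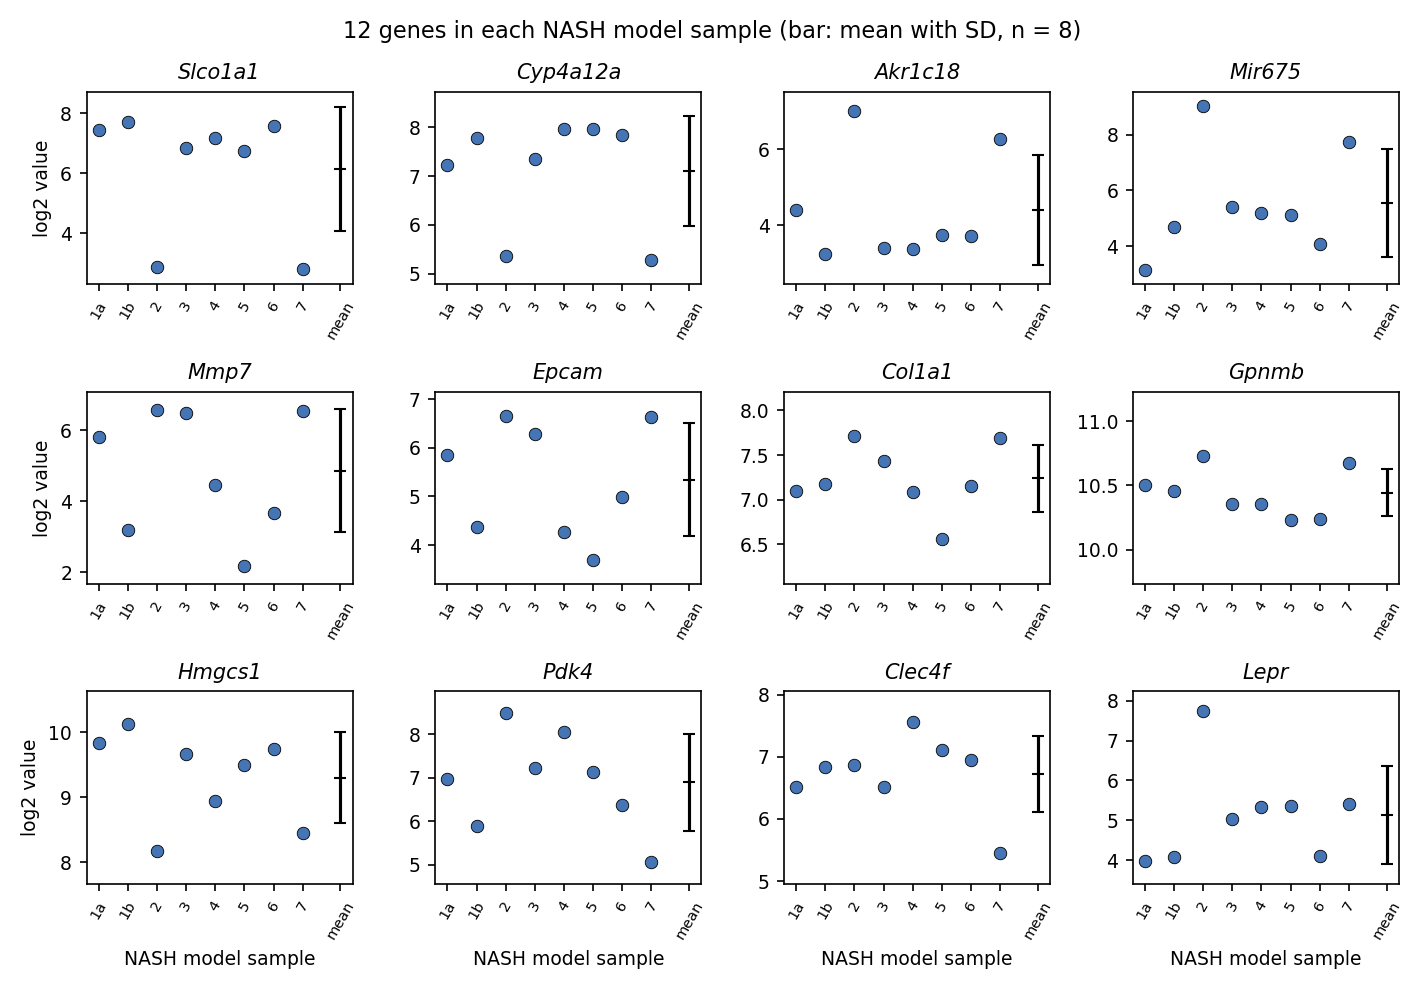
Log2 values of 12 genes (y axes, each with its own scale) in the 8 NASH model samples (x axes), with the mean and SD (n = 8) at the right of each panel. Slco1a1 and Cyp4a12a are low and Akr1c18 and Mir675 high in NASH model 2 and 7, whereas Epcam and Mmp7 are lowest in NASH model 5 and Clec4f is lowest in NASH model 7.

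Bile duct genes were the most variable of the 4 lists. Of the 23 measured duct genes, 15 had a mean above 4, and 14 of these 15 had an SD of 0.5 or more, against 3.39% of all genes. Their median SD was 0.80. Mmp7, an epithelial matrix metalloproteinase that marks injured ducts, had the widest range of the list (SD 1.73). Its values were 5.79 in 1a, 3.19 in 1b, 6.57 in NASH model 2, 6.48 in 3, 4.45 in 4, 2.16 in 5, 3.67 in 6 and 6.54 in 7. Samples 1a, 2, 3 and 7 were thus high and the other 4 low, without overlap. The tetraspanin Tspan8 had the same 4 samples on top, at 5.58 to 6.90, and its lowest value of 2.43 in NASH model 5. Epcam, an adhesion molecule of duct epithelium, was 5.85, 6.66, 6.29 and 6.65 in 1a, 2, 3 and 7, and at most 4.99 in the other 4, with its lowest value in NASH model 5. Sox9, a transcription factor of duct and progenitor cells, spread less (SD 0.61), from 5.34 in NASH model 5 to 7.41 in NASH model 7. Wwc1 was the exception of the list, with an SD of 0.19 and values of 5.65 to 6.21. The keratins Krt7 (mean 5.11) and Krt19 (mean 3.71) differed in level, and Krt19 is among the 8 members left out as dim. The members moved together, with a mean pairwise r of 0.79 and 13 of the 15 at r of 0.7 or more with the mean of the others (median 0.95).

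Matrix genes showed much the same order of samples with smaller differences. Of the 35 measured genes, 30 had a mean above 4, and their median SD was 0.36. An SD of 0.5 or more was found for 8 of the 30 (26.7%, against 3.39% of all genes). Mgp, an inhibitor of calcification in matrix, spread most (SD 0.87), from 3.95 in 1b to 5.93 in NASH model 3. Dermatopontin (Dpt) ran from 5.96 in NASH model 5 to 8.11 in NASH model 7, with a median of 7.15. The microfibril protein Mfap4 ran from 3.54 in NASH model 5 to 5.77 in 1a. Fibrillar collagens varied less. Col3a1 lay between 7.63 (5) and 8.89 (7), and Col1a1 between 6.55 (5) and 7.71 (2), a 2.23-fold span. Decorin (Dcn, SD 0.18) and the basement membrane collagen Col4a1 (SD 0.18) varied least of the 30. The mean pairwise r of the list was 0.43, since Col6a3, Col14a1, Col15a1, Col16a1 and Pcolce did not follow the rest (r of -0.44 to 0.30 with the mean of the other members).

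Macrophage genes were measured well above the receptor genes in the 8 livers and spread less than duct and matrix genes. The list had 25 of 26 genes above 4, 0 of them with an SD of 0.5 or more, against 3.39% of all genes. Its median SD was 0.20, at the 69th percentile among genes of like mean. Mmp12, a macrophage elastase, lay between 11.05 and 11.67, and Gpnmb, a glycoprotein of lipid-laden macrophages, between 10.23 (5) and 10.73 (2). Trem2, a lipid-sensing receptor of the same cells, lay between 6.87 and 7.44. The widest spreads were those of Ms4a7 (SD 0.47, 5.28 in NASH model 5 to 6.58 in NASH model 7), the endotoxin coreceptor Cd14 (0.38) and the monocyte chemokine receptor Ccr2 (0.36). The general macrophage genes Csf1r (0.13) and Adgre1 (0.12) varied least. Markers of resident Kupffer cells varied more, with a median SD of 0.45 over 7 genes. Clec4f, a lectin restricted to Kupffer cells, was 5.46 in NASH model 7 and 6.51 to 7.56 in the other 7 samples. The same sample was lowest for Fcna (4.96), Folr2 (4.91) and the complement receptor Vsig4 (5.86), and NASH model 4 was highest for all 4 genes. Cd5l did not share this, with 8.56 in NASH model 7 and a lowest value of 8.24 in NASH model 3. Timd4 and Cd163, which also mark Kupffer cells, lay below 4 on average.

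Hepatocyte genes were abundant, and their spread was uneven. The 37 genes had a median SD of 0.19, at the 68.8th percentile among genes of like mean, and 4 (10.8%, against 3.39% of all genes) reached 0.5. These were the nuclear receptor Nr1i3 (CAR, SD 0.77), the bile acid 12-alpha-hydroxylase Cyp8b1 (0.74), the glucose-6-phosphatase G6pc (0.69) and the uptake transporter Slco1b2 (0.52). Nr1i3 stood at 7.58 and 7.07 in NASH model 2 and 7 and at 8.84 to 9.17 in the other 6, and Cyp8b1 at 6.97 and 6.95 against 7.89 to 8.97. G6pc was lowest in NASH model 6 (8.74) and 7 (8.89) and highest in NASH model 4 (10.71). The carriers of the blood hardly varied, Apob at 11.93 to 12.09 and albumin at 12.70 to 12.73. Albumin and Apoe are the brightest genes of the arrays, and quantile normalization gives the same value to the same rank on each array, so their SDs (0.01 each) only reflect which was first. The hepatocyte list was loosely knit, with a mean pairwise r of 0.17.

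A score was formed for each list as the mean, over its genes with a mean above 4, of the log2 value minus the mean of the gene. The duct score ran from -1.27 in NASH model 5 to 1.10 in NASH model 7, the matrix score from -0.49 to 0.39 in the same samples, and the macrophage score from -0.26 in NASH model 5 to 0.17 in NASH model 7. The hepatocyte score ran the other way, from -0.28 in NASH model 7 to 0.16 in NASH model 5. Matrix and duct scores tracked each other most closely (n = 8, Pearson r = 0.96, exact permutation p = 5e-04, adjusted over 6 pairs p = 0.0030). Their Spearman rho was 0.90 (exact adjusted p = 0.014), r was 0.90 without NASH model 5 and 7, the samples farthest from the median matrix score (n = 6, exact adjusted p = 0.19, so that the call was lost), and 0.94 to 0.98 when each sample was left out in turn, where the call was never lost. Macrophage and duct scores gave r = 0.91 (exact adjusted p = 0.0058, rho = 0.90), and macrophage and matrix scores r = 0.87 (exact adjusted p = 0.012, rho = 0.86). Without NASH model 5 and 1b, the samples farthest from the median macrophage score, r was 0.76 (n = 6, exact adjusted p = 0.24) and 0.66 (n = 6, exact adjusted p = 0.27). Leaving out NASH model 5 alone ended both calls (r = 0.85 and 0.74, exact adjusted p = 0.064 and 0.080), so that these 2 relations rest in part on that sample. Leaving out NASH model 2 and 7 gave r = 0.86 for macrophage and duct and r = 0.88 for macrophage and matrix, each with an exact adjusted p of 0.064. For matrix and duct it gave r = 0.97 (exact adjusted p = 0.033).

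Hepatocyte genes were lower where duct and matrix genes were higher, but this relation was less firm. The hepatocyte score gave r = -0.78 with the duct score (exact adjusted p = 0.025) and r = -0.78 with the matrix score (exact adjusted p = 0.026). The exact adjusted p of Spearman's rho was 0.069 and 0.055. Without NASH model 5 and 7, r was -0.47 and -0.43 (n = 6, exact adjusted p = 0.44 for both), so the relation was not called without these samples. They lie at the ends of the scores, and leaving them out narrows the range. A lower r in this step therefore cannot decide whether the relation holds among the other samples. Leaving out NASH model 5 alone (r = -0.71 for both, exact adjusted p = 0.080) or NASH model 7 alone (r = -0.69 and -0.68, exact adjusted p = 0.12) ended both calls, and leaving out NASH model 4 ended that with the matrix score (r = -0.75, exact adjusted p = 0.056). The calls held with the values as deposited (r = -0.76 and -0.78), with median centring (-0.84 for both) and with cyclic loess (-0.76 for both). When arrays were instead centred on the mean of their hybridization controls, an alternative added after seeing the data, r was -0.36 and -0.27 (exact adjusted p = 0.56 and 0.60). Macrophage and hepatocyte scores gave r = -0.68, which did not pass (exact adjusted p = 0.061). The spike-in mean itself gave r = 0.77 with the hepatocyte score and -0.68 with the matrix score, and the interquartile range of gene deviations, widest in NASH model 7, gave r = -0.76 with the hepatocyte score. Over the 16 relations of 4 array measures with the 4 scores the exact adjusted p was 0.27 or more, and the part of these measures in the result was not tested.

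**Figure D3:**
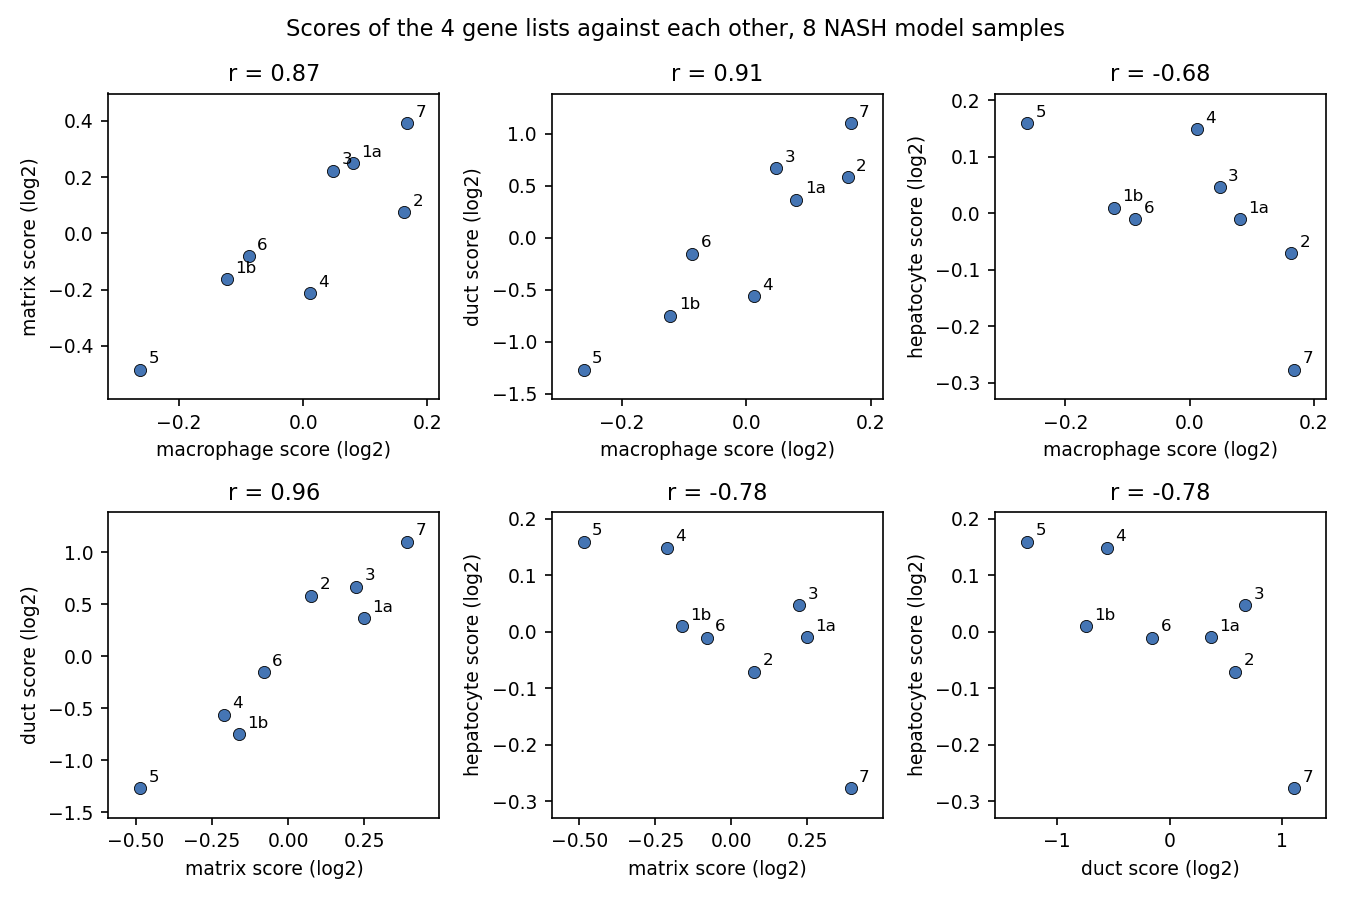
Scores of the macrophage, matrix, duct and hepatocyte lists (log2) plotted in pairs, each point a NASH model sample named by its number, with Pearson r over 8 samples above each panel. The 3 panels without hepatocyte genes run upward from NASH model 5 to NASH model 7 (r = 0.87 to 0.96), and the 3 with hepatocyte genes run downward (r = -0.68 to -0.78).

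Single members followed the scores unevenly. Of all 9990 genes 7.42% had r of 0.7 or more with the duct score, against 18 of 30 matrix genes (median r 0.78) and 11 of 25 macrophage genes (median 0.60). Among macrophage genes, Cybb, a subunit of the phagocyte oxidase (r = 0.94), and the integrin Itgax (0.94) lay at the top, and the complement genes C1qa (0.29), C1qb (0.22) and C1qc (0.03) and the Fc receptor chain Fcer1g (0.03) lay at the bottom. With the macrophage score, r of 0.7 or more was found in 6.92% of genes, in 13 of 15 duct genes (median 0.83) and in 16 of 30 matrix genes (median 0.73). With the matrix score the share over all genes was also 7.42%, and 13 of 15 duct genes (median 0.93) and 11 of 25 macrophage genes (median 0.65) reached it. In the other direction, 13 of 37 hepatocyte genes had r of -0.7 or less with the duct score, against 5.06% of all genes, with a median of -0.45. Hgd, an enzyme of tyrosine breakdown, was the lowest of them (-0.93), although its SD was 0.08. With the hepatocyte score, r of 0.7 or more was found in 8.52% of all genes, in 14 of 37 hepatocyte genes (each against the mean of the others) and in 3 of 7 Kupffer genes. Kupffer genes as a score gave r = -0.42 with the macrophage score, which did not pass (exact adjusted p = 0.61 over 96 relations), and 0 of the 7 genes had r of -0.7 or less with it, against 5.77% of all genes. With the matrix score 4 of the 7 did, against 4.56% of all genes, and these genes move together (mean pairwise r 0.63).

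A fit of every gene on each score (limma, Benjamini-Hochberg adjustment over 9990 genes) called 69 genes with the duct score (0.691%), 45 with the matrix score (0.45%), 80 with the hepatocyte score (0.801%) and 4 with the macrophage score (0.04%). Unadjusted p-values under 0.05 numbered 1344, 1220, 1828 and 1334. Of the 69 duct calls 65 were higher with the score. They held 12 duct genes, which are part of the score, and 7 matrix genes, and 39 of the 69 were among the 45 matrix calls. Both fits use the same 8 samples and their scores are correlated, so these are not separate findings. Outside the list the closest genes were Pdgfd, a ligand of the PDGF receptor that acts on mesenchymal cells (slope 1.02 ± 0.09 log2 per log2 of score, adjusted p = 6.7e-04), the epithelial annexin Anxa13 (1.12 ± 0.11, adjusted p = 0.0012), Plet1 (0.88 ± 0.09, 0.0015), Pdzk1ip1 (0.98 ± 0.10, 0.0015), Gas6, the ligand of the Axl and Mertk receptors (0.66 ± 0.07, 0.0019), and the laminin chain Lamc3 (1.02 ± 0.12, 0.0026). Pdgfd values were 5.82, 6.04, 6.44 and 6.75 in 1a, 2, 3 and 7 and 4.32 to 5.81 in the other samples, the last being NASH model 6. The 4 genes that were lower with the score were Mtx3, Nrm, Tbc1d10a and Scap, the last a sterol-sensing escort protein of SREBP (-0.36 ± 0.07, adjusted p = 0.047). The 4 macrophage calls were Mmp7, Elovl7, Muc1 and Ace, of which Mmp7 and Muc1 belong to the duct list, and none is on the macrophage list. With the matrix score, Tspan8, Bicc1 and Pkhd1 of the duct list came first, followed by Mal and Tm4sf1 (adjusted p = 0.0018 to 0.0048). With the hepatocyte score, 50 genes were higher (0.501%), led by Urad, an enzyme of urate breakdown, and the amino acid transporter Slc16a10 (adjusted p = 0.020 each). Another 30 were lower, led by the stress response gene Nupr1 (-4.65 ± 0.46, adjusted p = 0.011) and the glucose transporter Slc5a1 (-5.62 ± 0.74, adjusted p = 0.030).

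These counts depended on single samples. Without NASH model 7, limma called 19, 11, 0 and 1 genes with the duct, matrix, hepatocyte and macrophage scores, and without NASH model 5 it called 30, 10, 2 and 0. With the hepatocyte score it called 5 without 1a, 18 without 1b, 21 without NASH model 3 and 2 without NASH model 4. With the duct score it called 44 without 1b and 38 without NASH model 4. The 4 macrophage calls became 1 without 1a or 1b, 2 without NASH model 6, 10 without NASH model 3 and 22 without NASH model 4. At 0 calls, unadjusted p-values under 0.05 numbered 791 for the hepatocyte score without NASH model 7 and 1301 for the macrophage score without NASH model 5. Without NASH model 2 and 7 together it called 15, 8, 0 and 0 (655, 779, 859 and 610 at an unadjusted p under 0.05).

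Clustering of the 339 genes with an SD of 0.5 or more by their correlation gave 5 groups that held 251 genes. Which genes share a cluster was set by these same values, so the clusters are described with no test. Cluster 1 held 84 genes and is the split of NASH model 2 and 7. Its mean deviation was -0.99 and -1.08 in these samples and 0.20 to 0.49 in the other 6. It took in 11 of the 13 male-biased liver genes with a mean above 4, and 84 of all 339 clustered genes. These 11 were all the male-biased genes with an SD of 0.5 or more. Low values in NASH model 2 and 7 raise the SD and also define the cluster, so this count is no support. The 11 genes were Elovl3, Slco1a1, Cyp7b1, Cyp2d9, Cyp4a12a, Cyp4a12b, Mup3, Mup21, Susd4, Selenbp2 and C6. Mup21, a major urinary protein, stood at 8.48 and 7.87 in NASH model 2 and 7 and at 9.97 to 10.19 elsewhere. Cyp2d9 stood at 8.23 and 7.93 against 9.52 to 10.18, and the complement component C6 at 8.45 and 8.07 against 9.52 to 9.71. The brightest male-biased gene, Mup20, did not share the split to this extent, with 11.70 and 11.82 against 11.91 to 12.09. Female-biased genes did not show the reverse as a group. Cyp2a4 was highest in NASH model 2 and 7 (10.69 and 9.61, against 8.57 to 9.27), whereas Sult1e1 was lowest there (3.43 and 3.56, against 4.49 to 5.16) and Cux2, a female-specific repressor, lay below 4 on average. Scores of the 2 lists gave no common axis, since the female-biased score was 0.65 in NASH model 2 and -0.19 in NASH model 7.

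Of the 17 cholesterol synthesis genes, 5 belonged to the same cluster. All 17 correlated positively with each other (mean pairwise r 0.79). The 5 genes, Hmgcs1, Idi1, Cyp51, Nsdhl and Msmo1, were those with an SD of 0.5 or more (29.4%, against 3.39% of all genes). The same limit applies to this count. Hmgcs1, the synthase that feeds the pathway, was 8.17 in NASH model 2, 8.45 in 7, 8.94 in 4 and 9.49 to 10.12 in the other 5. Msmo1, a sterol methyl oxidase, was 5.69, 6.03 and 6.83 in the same 3 samples and 7.14 to 7.41 in the rest. NASH model 4 thus lay between the low pair and the others in both genes, which it did not for Slco1a1 (7.18). Genes of the pericentral zone, the lobule region around the central vein, were low in the same pair, with Cyp1a2 at 8.82 and 9.16 against 10.07 to 10.73 and a list score of -0.64 and -0.60 against 0.10 to 0.33. Periportal genes were not, with scores of 0.01 and -0.08 against -0.09 to 0.14.

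Cluster 2 held 83 of the 339 clustered genes. Of the list genes with an SD of 0.5 or more, it took in 12 of 14 duct genes and 7 of 8 matrix genes. Most of its genes belong to neither list, and the same values set the cluster, so these counts are no support. The mean deviation of cluster 2 ran from -0.86 in NASH model 5 to 0.99 in NASH model 7. Cluster 3 (31 genes) had a different order, with NASH model 2, 4 and 5 high and 6, 7 and 1b low. It held Ppargc1a, a coactivator of gluconeogenesis (7.04 in NASH model 6 to 8.85 in NASH model 4), G6pc, Pdk4 and Cyp4a14. PPAR-alpha targets, the fatty acid oxidation genes that this receptor drives, were split between clusters. Of 16 list genes 8 had an SD of 0.5 or more (50%, against 3.39% of all genes). Of these, 4 were in cluster 3, 2 in cluster 4 and 2 in cluster 5. These clusters held 31, 28 and 25 of the 339 clustered genes. Acot1 was highest in NASH model 2 (7.58, median 5.90), Fgf21, a fasting and stress hormone of the liver, was highest in NASH model 7 (7.27) and 2 (6.96), and the lipid droplet protein Plin5 was lowest in NASH model 7 (4.90). Cluster 4 (28 genes) was high in NASH model 2 (1.29) and 7 (0.52), and its central genes included Cidec, a fat droplet fusion protein (8.31 and 7.88 there, 6.42 to 7.76 elsewhere). Cluster 5 (25 genes) was low in NASH model 7 alone (-1.13, against -0.17 to 0.52), and held Clec4f and Fcna of the Kupffer list beside Cyp4a32, Pex11a and Urad, and no gene of the hepatocyte list.

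**Figure D4:**
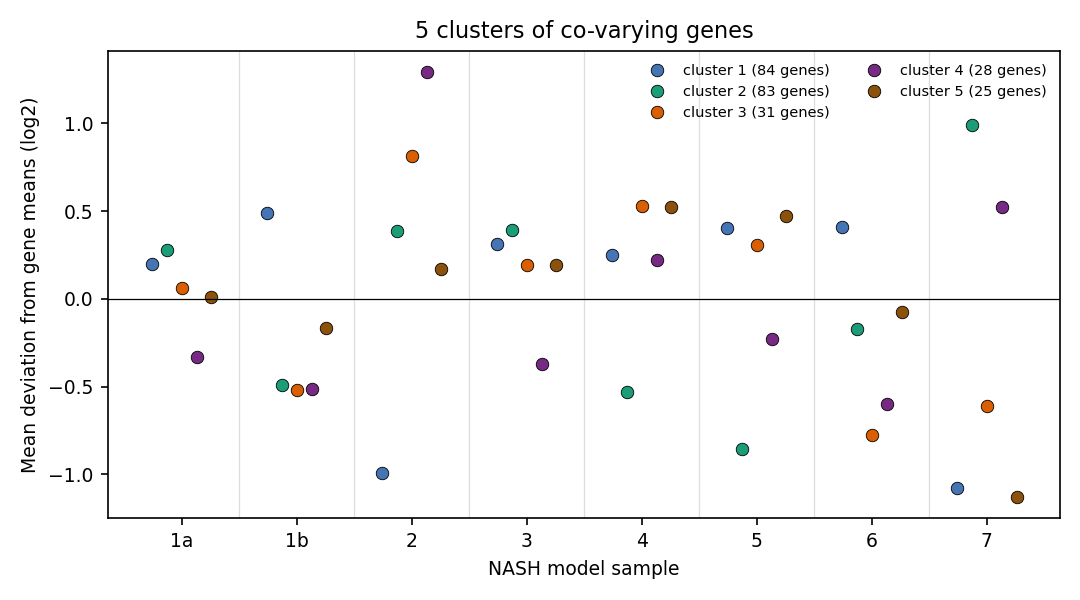
Mean deviation of the genes of each of 5 clusters from their own means (y axis, log2) in the 8 NASH model samples (x axis), with points of a sample set side by side. Cluster 1 is low in NASH model 2 and 7 only, cluster 2 rises from -0.86 in NASH model 5 to 0.99 in NASH model 7, and cluster 5 is low in NASH model 7 only.

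The genes most like 5 reference genes over the 8 samples were then listed, among 1993 genes with an SD of at least 0.3. They are descriptions, since the highest r of so many genes over 8 samples is high by choice. Nearest to Epcam were Scube1 (r = 0.98), Col1a2 (0.97), Timp2 (0.97), Rnf122 (0.97) and Sparc (0.96), of which Col1a2, Timp2 and Sparc encode matrix proteins or an inhibitor of their turnover. Nearest to Gpnmb were Sccpdh (0.97), Arfgap3 (0.96) and the fatty acid binding protein Fabp4 (0.95). Col1a1 was nearest to Ptp4a3 (0.95), Elapor1 (0.94) and Tead1 (0.93), and not to other collagens. For Slco1a1 the 8 samples fall into separate clusters, so that r is given within the 6 samples other than NASH model 2 and 7. Of the 5 genes nearest over all samples, the retinal dehydrogenase Aldh1a1 (0.95) and the citrate transporter Slc13a5 (0.88) also followed it within the 6, and Susd4 (0.72), Thrb (0.67) and Slc17a3 (0.66) did so less. Its opposites were higher in NASH model 2 and 7 without following it further. They were Apoa4, an apolipoprotein (12.27 and 12.26 against 11.24 to 11.52, r = -0.30 within the 6), Akr1c18 (0.07) and Fabp2 (0.20).

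Of the 27 interferon-stimulated genes with a mean above 4, 3 had an SD of 0.5 or more (11.1%, against 3.39% of all genes). Of these 3, Ifit1 and Bst2 were in cluster 1, which held 84 of the 339 clustered genes. The list as a whole did not follow the split of NASH model 2 and 7, since its score was also low in NASH model 5. The 27 genes had a median SD of 0.39 and a mean pairwise r of 0.51, and their score was high in NASH model 4 (0.40) and 1b (0.26) and low in 2 (-0.35), 5 (-0.30) and 7 (-0.25). Ifit1, which binds viral RNA, read 6.79 in 1b, 6.46 in NASH model 4 and 4.97 in NASH model 7. Irf7, a transcription factor of the response, read 8.05 in NASH model 4 and 6.66 in NASH model 7. The chemokine Cxcl9 went against this order and was highest in NASH model 7 (7.97) and 2 (7.62). Promoters of 20 of the 27 genes were in the RefSeq table (GRCm38.p6), and the 250 bases before the start held GAAA and GAAAC with any 2 bases between them, the letters of an interferon response element, on either strand in 10 of 22 promoters (45.5%), against 225 of 32851 (0.685%) in the whole table. The 5 genes with the largest SDs among those holding the letters are shown as windows of 30 bases, written 5′ to 3′ on the strand of the gene. Whether these 5 vary together was not measured apart from the 27. Capitals mark each match within the window, which is the reverse complement of the letters in Ifit1, Ifit3 and Gbp3. In Isg15 and Gbp3 the capitals hold 2 overlapping matches.
Ifit1, chr19:34640794-34640823 (+): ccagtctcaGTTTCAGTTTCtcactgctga
Bst2, chr8:71537582-71537611 (-): gcattccagGAAAATGAAACtgaaaggctg
Ifit3, chr19:34583397-34583426 (+): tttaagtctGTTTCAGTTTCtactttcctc
Isg15, chr4:156200870-156200899 (-): tagGAAAAGGAAACCGAAACagaaaatagc
Gbp3, chr3:142559995-142560024 (+): acaGTTTCAGTTTCTATTTCccagatccct

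The same search in other lists gave few matches. The sterol regulatory letters TCACNCCAC were in 1 of 16 promoters of cholesterol synthesis genes (346 of 32851, or 1.05%, in the table), that of Hmgcs1, shown with the match in capitals.
Hmgcs1, chr13:119690204-119690233 (+): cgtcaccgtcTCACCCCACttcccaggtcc

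TTCNNNGAA, the letters of a STAT5 site, were in 0 of 9 promoters of male-biased genes (7.02% in the table), and AGGTCA repeated after any 1 base, a direct repeat bound by PPAR-alpha, in 0 of 13 promoters of its targets (0.0335%). GTTAAT followed by any base and ATT, part of an HNF1 site, was in 1 of 12 duct promoters, that of Pkhd1, and in 1 of 34 hepatocyte promoters, that of G6pc (0.371%). CAAAGTCCA, an HNF4 site, was in 2 of 34 hepatocyte promoters, those of Cyp3a11 and Cyp8b1 (0.384%). The 6 motifs were searched separately on both strands, so that a stretch can count for more than 1. A match is a description of these letters and shows no binding.

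Genes of the pathway named in the title of the study, soluble guanylate cyclase, VASP, NF-kB and the NLRP3 inflammasome, had SDs of 0.15 to 0.39 where their mean was above 4. Gucy1b1, the beta subunit of the cyclase, lay between 5.08 and 5.51 (SD 0.17), and Rela, a subunit of NF-kB, between 8.79 and 9.17 (0.15). Vasp, an actin regulator that the cGMP pathway phosphorylates, lay between 5.71 (5) and 6.59 (1a). Pycard, the adaptor of the inflammasome, lay between 4.08 (6) and 5.37 (7), and Il1b, its cytokine product, between 4.38 (3) and 5.33 (1a). Casp1 (SD 0.23) and Il18 (0.16) varied less. Nlrp3 (mean 2.32) and the kinase Prkg1 (mean 2.97) lay near the receptor genes. Of the 7 genes above 4, 1 (Vasp, r = 0.74) had r of 0.7 or more with the matrix score, against 7.42% of all genes. With the duct and macrophage scores 0 did, against 7.42% and 6.92% of all genes. With the hepatocyte score 1 of the 7 had r of -0.7 or less, against 9.16% of all genes. Counts this small say little about the pathway. As a score the 7 genes gave r = 0.82 with the matrix score (exact adjusted p = 0.22 over the 96 relations of other lists), which did not pass. The 7 genes hardly moved together (mean pairwise r 0.07).

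Beside the 4 lists, 24 further lists gave 96 correlations with the 4 scores, and 0 had an exact adjusted p under 0.05. Of these, 88 were over the 8 samples, and the 8 of the male-biased and pericentral lists were within the 6 samples other than NASH model 2 and 7. Among the lowest were T, B and NK cell genes with the hepatocyte score (r = -0.89, exact adjusted p = 0.19, resting on 3 genes above 4) and cell cycle genes with it (r = -0.87, exact adjusted p = 0.19). Stellate cell and myofibroblast genes gave r = 0.83 with the matrix score (exact adjusted p = 0.20) and -0.85 with the hepatocyte score (exact adjusted p = 0.19). Kupffer genes gave r = -0.80 with the matrix score (exact adjusted p = 0.22). Markers of stellate cells did not form a group of their own, with a mean pairwise r of 0.01 over 13 genes.

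**Figure D5:**
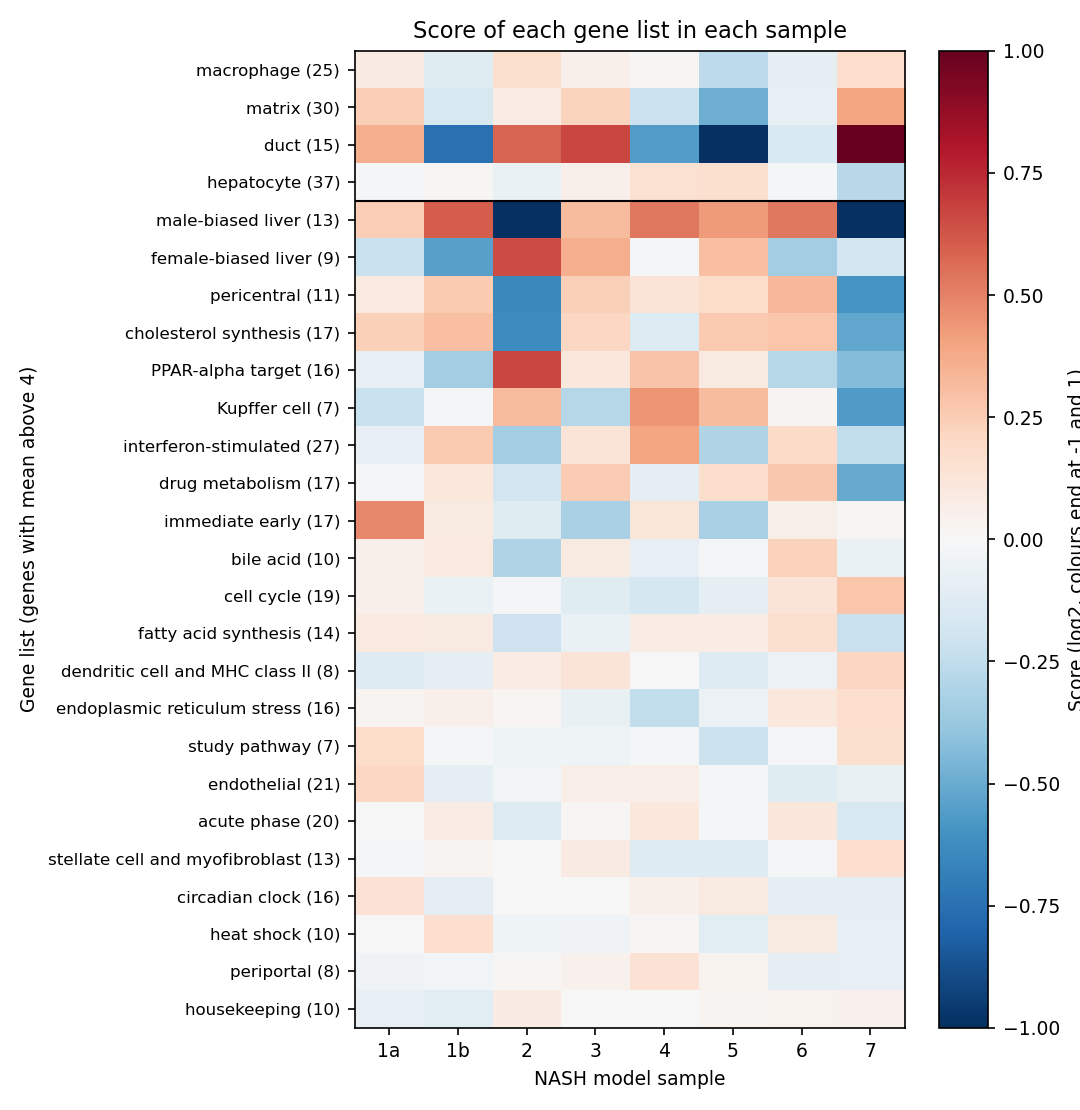
Score of each gene list with 5 or more genes above 4 (rows, number of genes in brackets) in the 8 NASH model samples (columns), in log2 units, red above and blue below the mean of the 8. The 4 main lists stand above the line. Colours end at -1 and 1, beyond which lie the duct score of NASH model 5 (-1.27) and 7 (1.10) and the male-biased score of 2 (-1.24) and 7 (-1.42).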

How the data were processed

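Values were used as the authors deposited them, in log2 units on arrays of total RNA, made by steps not given in the sources used here. The 8 NASH model columns were quantile normalized together over all 29129 probe sets (limma 3.58.1, R 4.3.3), which moved no value by more than 0.125, and control and spike-in rows were dropped. Platform symbols were used, with the highest-mean row per gene for the 55 genes with several rows. Genes with a mean of 4 or less were left out. Correlations over samples used exact two-sided permutation tests with Benjamini-Hochberg adjustment over each family. Genes were fitted on each score with limma's lmFit and eBayes and called at an adjusted p under 0.05, after a test on simulated data. Clusters used average linkage on 1 - r cut at 0.4, keeping groups of 15 or more. Members and lists were chosen with earlier results of these data known. Of 591 listed genes 527 were in the table. Named genes were the 20 largest SDs; the 3 largest and 2 smallest SDs of each of the 4 lists and the largest of each other list; the 6 highest and 4 lowest genes outside the list in each fit; the 5 most and 3 least like Gpnmb, Col1a1, Epcam, Slco1a1 and Dbp; the 8 central genes of each cluster; the 5 most even genes with a mean above 8; and the genes of the title's pathway, predicted genes left out. Not all of them are printed, and further list members were chosen after their values were seen. NASH model 1a and 1b differed from each other as other pairs did (SD of the difference 0.350, against 0.289 to 0.483 in 27 other pairs) and were kept apart. Alternatives were other normalizations, filters, probe set rules, scores, measures and variance options, and the omission of each sample. The number of arrays limits the precision.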

Additional observations from a re-analysis of the deposited data

Results flagged for a closer look

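A sample far from the other 7 was found in 7 of 198 genes and list scores examined (169 genes and 29 scores). In unrelated items picked without regard to their values, chance would flag about 1 in 20. Many of these genes were picked by these same values and vary together, so 7 of 198 cannot be judged against that rate. The 7 cases are therefore only described. In NASH model 2, which had 4 of the 7, Lepr at 7.74 (next 5.42), Igf2 at 7.42 (next 4.43) and the neutrophil gene S100a9 at 5.22 (next 4.48) were far above the other samples, and Cyp7a1 at 6.42 (next 8.29) was far below them. NASH model 7 was far below the others in Sdha, a mitochondrial dehydrogenase subunit, at 6.69 (next 7.32), and in the matrix metalloproteinase Mmp13, at 3.01 (next 3.97). NASH model 5 was lowest in Serpina1a, alpha-1-antitrypsin, at 12.27 (next 12.31), a distance of little size because the gene varied by an SD of 0.03. Genes in which NASH model 2 and 7 stand apart together are not picked up by this measure, which looks at a single sample.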

How the results depend on the processing

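Of the 226 recomputed correlations and counts 157 kept their direction and their side of the threshold, or stayed within 1.5 times the count, and 0 reversed; of 2761 SDs of named genes 12 moved. Leaving out each sample in turn gave r of 0.94 to 0.98 for matrix and duct, 0.85 to 0.96 for macrophage and duct, 0.74 to 0.92 for macrophage and matrix, -0.89 to -0.69 for duct and hepatocyte, -0.87 to -0.68 for matrix and hepatocyte and -0.77 to -0.55 for macrophage and hepatocyte, with 19 to 90 genes called with the duct score, 10 to 54 with the matrix score, 0 to 84 with the hepatocyte score and 0 to 22 with the macrophage score, and 13 to 26 genes with an SD of 1 or more. Leaving out NASH model 5, 7 or 4 ended calls, as given above. Leaving out NASH model 4 also brought macrophage and hepatocyte past the threshold (r = -0.77, exact adjusted p = 0.045). Without the 2 samples farthest from the median, where 6 samples remain, the exact adjusted p passed in 0 of 6 pairs: r was 0.90 for matrix and duct, 0.76 for macrophage and duct, 0.66 for macrophage and matrix, -0.43 for matrix and hepatocyte and -0.47 for duct and hepatocyte. Without NASH model 2 and 7 (added after seeing the data) r was 0.88 for macrophage and matrix, 0.86 for macrophage and duct, -0.69 for matrix and hepatocyte and -0.61 for duct and hepatocyte, none past the threshold, with 3 genes of an SD of 1 or more and 0, 8, 15 and 0 genes called with the macrophage, matrix, duct and hepatocyte scores. With spike-in centring (also added) r was -0.27 for matrix and hepatocyte and -0.36 for duct and hepatocyte, and 702, 558, 330 and 0 genes were called in the same order of scores. Spearman's rho of -0.74 for matrix and hepatocyte and -0.69 for duct and hepatocyte did not pass. Scores by the first principal component gave -0.69 for matrix and hepatocyte, which did not pass, and -0.79 for macrophage and hepatocyte, which did, as it did with no filter (-0.72) and with the median of members (-0.71). The trend and robust options of eBayes called 36, 85, 130 and 414 genes in the same order. Median centring called 0 with the macrophage and 218 with the hepatocyte score. A mean above 5 left 13 genes with an SD of 1 or more and 28, 35 and 207 calls with the matrix, duct and hepatocyte scores, and no filter gave 37 with duct and 8 with hepatocyte. Taking 1a and 1b as 1 sample called 2 with the macrophage score, and z scores called 0 with the macrophage and 13 with the hepatocyte score. The cause of these moves was not tested, except that leaving out samples or genes leaves fewer of them. No paired analysis was possible because no groups are compared. With 8 arrays and no stated animals, a correlation that does not pass does not show that 2 lists vary apart, and genes near the receptor genes' level show only part of their spread.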

Other observations

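Some of the further lists are described here by sample. Immediate early genes, which react within minutes to stress or handling, were highest in 1a, with a score of 0.48 against -0.32 to 0.12 in the others. Fos was 6.64 in 1a, had a median of 5.31 and was lowest in NASH model 5 (3.85). Of the 17 genes, 5 had an SD of 0.5 or more (29.4%, against 3.39% of all genes). Circadian clock genes showed no common shift, with a mean pairwise r of 0.03 over 16 genes and scores of -0.10 to 0.15. Their largest SD was that of Cry1 (0.53), highest in NASH model 2 (5.82) and lowest in 1b (4.12), and the clock output gene Dbp lay between 9.88 and 10.35.

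Endothelial genes were uneven, with a mean pairwise r of 0.15. An SD of 0.5 or more was found for 3 of 21 (14.3%, against 3.39% of all genes). Lyve1, a marker of sinusoidal endothelium, was highest in NASH model 2 (7.45) and lowest in NASH model 6 (5.88). Cd34 was highest in NASH model 3 (6.52) and lowest in NASH model 5 (4.72). Neutrophil and lymphocyte genes were mostly dim, with 10 of 12 and 16 of 19 below 4. Cell cycle genes with a mean above 4 had their highest score in NASH model 7 (0.27) and their lowest in NASH model 4 (-0.18). Housekeeping genes had a median SD of 0.15.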
